A study of Mus musculus with 4 samples.

Results

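*Csf1r*, *Cx3cr1*, *Aif1*, *C1qa*, *C1qb*, *C1qc*, *Tyrobp*, *Fcer1g*, *Cd68* and *Mrc1* are 10 genes by which macrophages are commonly recognised. They were taken by symbol from the gene spots of 4 two-colour Agilent arrays of E14.5 mouse cochlear ducts, where they account for 10 of 29924 gene names and 15 of 39429 probes. Each array compared 1 pool of *Sox2-Tbx2LOF* ducts, with the genotype *Sox2(creERT2);Tbx2(fl/fl)*, with 1 pool of control ducts, given in the labels as *Tbx2(fl/n.d.)* and described in the study's methods as cre-negative. All embryos had the NMRI background, and the dams of mutant and control embryos alike had received 4 mg of tamoxifen by mouth at E12.5. Arrays 1 and 2 held female pools and arrays 3 and 4 male ones, and the mutant pool carried Cy5 on arrays 1 and 3 and Cy3 on arrays 2 and 4. CreERT2, a tamoxifen-dependent recombinase, was expressed from the *Sox2* locus, which is active in the prosensory cells of the epithelium. The mutants thus differed from the controls in the knock-in as well as in *Tbx2*, and whether any macrophage recombined was not analysed here. According to the methods, the pools combined the ducts of many embryos and the spiral ganglion was removed before whole ducts were frozen, so the RNA came from epithelium, mesenchyme, vessels and blood-borne cells together. In such bulk samples, fewer macrophages and less RNA per macrophage cannot be told apart.

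Macrophages are phagocytes of the myeloid lineage that settle in almost every embryonic organ, where they clear dying cells and debris. Their survival depends on CSF1R, the receptor for the growth factors CSF1 and IL34, and their movement in part on CX3CR1, the receptor for the membrane-bound chemokine CX3CL1. C1QA, C1QB and C1QC are the chains of C1q, the first component of the classical complement pathway, which also tags material for uptake. TYROBP and FCER1G are adaptors with activation motifs in their tails that pass on the signals of many surface receptors of myeloid cells. CD68 is a glycoprotein of lysosomes, MRC1 a mannose-binding uptake receptor and AIF1, also called IBA1, an actin-bundling protein of the cytoplasm. In the developing inner ear, macrophages occupy the mesenchyme around the duct and the spiral ganglion. None of these genes is exclusive to macrophages. *Fcer1g*, for example, is also used by mast cells, *Tyrobp* by other leukocytes and *Mrc1* by some endothelial cells.

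The promoters of macrophage genes often carry sites for PU.1, the ETS factor encoded by *Spi1* that directs myeloid development. The starts of the 10 genes were searched on both strands for the purine-rich core of such sites, GAGGAA. No other motif was searched. The RefSeq promoter table (GRCm38.p6, 250 bases before to 50 bases after a start site) held 7 of the 10 genes and lacked *Csf1r*, *C1qa* and *Tyrobp*. The core was found in 5 of these 7, *Aif1*, *C1qb*, *C1qc*, *Cd68* and *Mrc1*, and in 28.3% of all 32851 promoters of this length in the table. The match nearest to the start site, on its upstream side, is shown in capitals for the 4 genes in which a window of 60 bases around it lay outside the annotated gene. The windows lie at chr4:136886201-136886260 (*C1qb*, minus strand), chr4:136893075-136893134 (*C1qc*, minus strand), chr11:69666361-69666420 (*Cd68*, minus strand) and chr2:14229352-14229411 (*Mrc1*, plus strand), and each is written in the direction of the gene.
C1qb: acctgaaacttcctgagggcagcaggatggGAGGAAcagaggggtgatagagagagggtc
C1qc: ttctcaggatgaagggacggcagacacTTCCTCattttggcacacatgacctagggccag
Cd68: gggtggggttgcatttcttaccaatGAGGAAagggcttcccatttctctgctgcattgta
Mrc1: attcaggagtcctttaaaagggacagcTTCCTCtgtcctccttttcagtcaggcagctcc
The core reads along the gene in *C1qb* and *Cd68* and on the opposite strand, as TTCCTC, in *C1qc* and *Mrc1*. It ends 25 bases before the start site in *C1qb* and 30 in *Mrc1*, and 188 and 220 bases before it in *C1qc* and *Cd68*. Such a match is a string of letters and was not tested for binding. The probe for *Spi1* itself was not well above background in any of the 8 pools.

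All 15 probes of the 10 genes were well above background in all 8 pools, that is, in both dyes of every array, and all 10 genes were tested. *Csf1r* and *Cx3cr1* were read by 3 probes each, *Cd68* by 2 and the other 7 genes by 1. Each probe was spotted 4 times per array, and the brightest probe stood for a gene. For these probes the median SD between the spots of an array lay between 0.023 for *Mrc1* and *Fcer1g* and 0.064 for *C1qb* on the log2 scale. The raw Cy3 signal was lowest over background for *C1qb*, at 15.4 to 17.4 times the local background, and highest for *Csf1r*, at 210 to 249.6 times. In Cy5 it was 6.4 to 9.0 times for *C1qb* and 98.2 to 133 times for *Csf1r*. Probe signals depend on probe sequence, so the levels of different genes were not ranked against each other. Levels below are normalized log2 signals of a dye channel, on a scale on which the lowest signal well above background was between 6.52 and 6.63 in the 8 pools. The brightest *Csf1r* probe lay on mouse chromosome 18 (mm9, 61290725 to 61290784), that of *Cx3cr1* on chromosome 9 (119957811 to 119957870) and the 3 C1q probes side by side on chromosome 4, from 136436578 (*C1qb*) to 136452468 (*C1qa*). Whether the probes lie in coding exons or in untranslated parts was not analysed here, for want of an annotation of that build.

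The labels were checked with other genes first. *Esr1*, whose hormone-binding part is contained in CreERT2, was well above background in 4 of 4 mutant and 0 of 4 control pools and at least 4.24-fold higher in the mutant. *Tbx2* had a log2 ratio of −0.12 ± 0.10 (SD, n = 4; adjusted p = 0.124 from limma), below 0 on 4 of 4 arrays. *Xist* was lower and the Y-linked *Eif2s3y*, *Ddx3y* and *Uty* were higher in the pools labelled male. Median spot intensities were 263 to 292 in Cy3 and 496 to 563 in Cy5, 8.29% to 8.56% of the gene spots carried an outlier flag, and all 4 arrays lay on 1 slide with 1 scan time.

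The level of the macrophage genes in *Sox2-Tbx2LOF* ducts was close to that in control ducts. None of the 10 was called (1.5-fold or more, with an adjusted p below 0.05), beside 93 of the 21042 genes tested (0.442%), and none had an adjusted p below 0.05 without the fold minimum, beside 1091 genes (5.18%). Their log2 ratios of mutant over control lay between −0.035 (*Cx3cr1*) and 0.089 (*Fcer1g*), with a median of 0.057 (0.022 without array 2), whereas the median over all genes tested was 0.0024. The lowest adjusted p of the 10 was 0.203, for *Fcer1g*, from limma on the ratios of 4 arrays. At an unadjusted p below 0.05, limma counted 1 of the 10, again *Fcer1g*, beside 20.2% of all genes tested. The 95% intervals of the 10 mean ratios together ran from −0.14 (*Cx3cr1*) to 0.18 (*Mrc1*), which is a fold change of at most 1.14 in either direction. The ratio was above 0 for 9 of the 10 genes (8 with median centring), as it was for 10873 of the 21042 genes tested. These 9 are not 9 independent observations, since the 10 genes varied together.

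**Figure D1:**
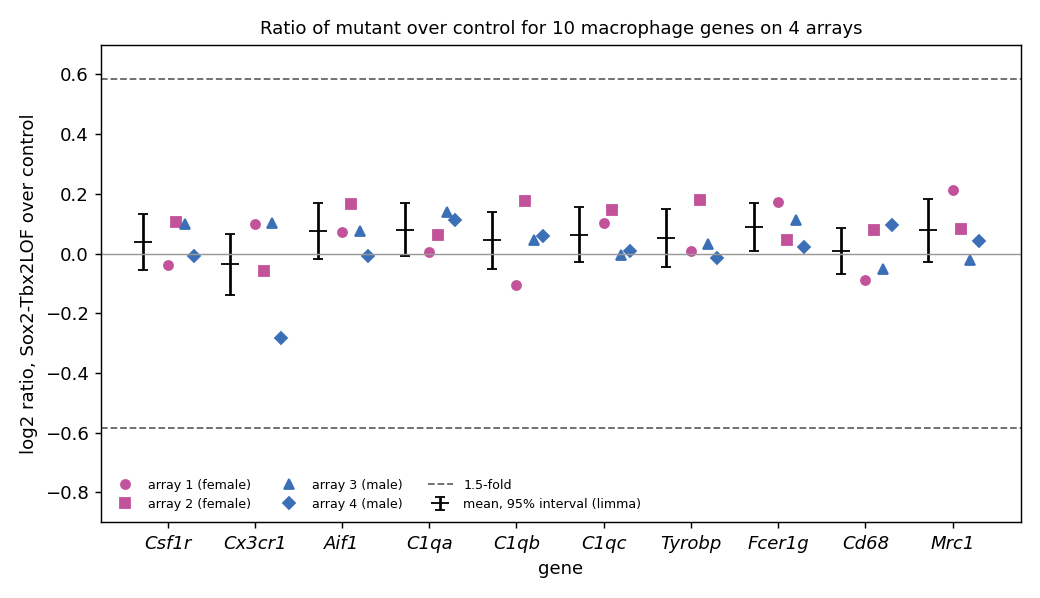
Log2 ratio of *Sox2-Tbx2LOF* over control for each of the 10 macrophage genes (y axis) on each of the 4 arrays (coloured points), with the mean and its 95% interval from limma (black) and the fold minimum of 1.5 (dashed lines). All 10 intervals lie between −0.14 and 0.18, inside the dashed lines, and the point of *Cx3cr1* on array 4, at −0.28, is the farthest from 0.

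*Csf1r*, the receptor on which macrophages depend, had levels of 12.72, 12.92, 13.13 and 12.99 in the mutant pools of arrays 1 to 4. In the control pools of the same arrays its levels were 12.76, 12.82, 13.03 and 13. The ranges overlapped almost entirely, and the mutant pool was the higher one on 2 of 4 arrays. The log2 ratio was 0.039 ± 0.074 (SD, n = 4; 95% interval −0.055 to 0.13). Its other two probes, both dimmer, gave 0.0070 ± 0.12 and 0.075 ± 0.088. All of these values were smaller than their spread between arrays.

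*Cx3cr1* was the exception in sign. Its levels were 12.07, 12, 12.30 and 11.96 in the mutant pools and 11.97, 12.06, 12.19 and 12.24 in the control pools of arrays 1 to 4. The mutant pool was the higher one on arrays 1 and 3, where it carried Cy5, and the lower one on arrays 2 and 4. The log2 ratio was −0.035 ± 0.18 (SD, n = 4; 95% interval −0.14 to 0.067). This SD includes the difference between the dye orientations, and the ratio farthest from 0 was that of array 4, −0.28. The second probe, which covers nearly the same bases of chromosome 9 (119957806 to 119957865), gave −0.29 on that array and −0.069 ± 0.15 over all 4. The third probe, about a kilobase away (119959018 to 119959077) and dimmer, gave 0.26 on array 4 and 0.16 ± 0.12 over the 4 arrays. The probes of *Cx3cr1* thus differed in sign, and the mean over its probes was 0.020. *Cd68*, the lysosomal glycoprotein, had a log2 ratio of 0.0089 ± 0.093 by its brightest probe, below 0 on arrays 1 and 3 and above 0 on arrays 2 and 4. Its dimmer probe gave 0.087 ± 0.066.

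**Figure D2:**
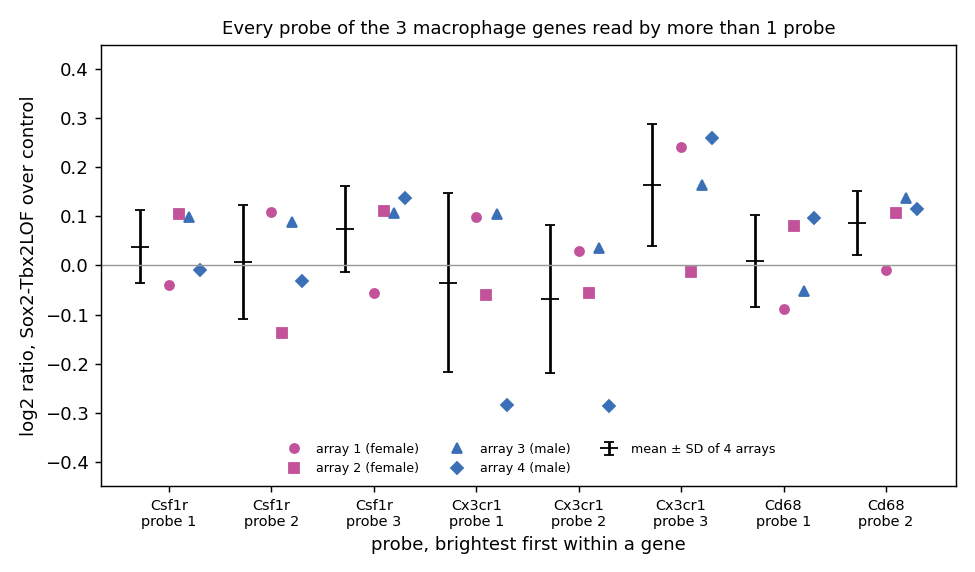
Log2 ratio of *Sox2-Tbx2LOF* over control on each array (points) for every probe of *Csf1r*, *Cx3cr1* and *Cd68*, the 3 genes with more than 1 probe, with the mean ± SD of 4 arrays (black). On array 4 the first and second probes of *Cx3cr1*, which overlap in sequence, lie at −0.28 and −0.29 and the third at 0.26.

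The adaptor gene *Fcer1g* was the member with the lowest p. Its levels were 10.39, 10.52, 10.73 and 10.59 in the mutant pools and 10.22, 10.47, 10.62 and 10.56 in the control pools of arrays 1 to 4. The mutant pool was the higher one on all 4 arrays, but the differences between arrays were larger than those between genotypes, and the ranges of the genotypes overlapped. The log2 ratio was 0.089 ± 0.068 (SD, n = 4; 95% interval 0.0090 to 0.17; adjusted p = 0.203 from limma). *C1qa* likewise had a ratio above 0 on every array, with a log2 ratio of 0.080 ± 0.059 (SD, n = 4; 95% interval −0.0081 to 0.17). A ratio above 0 on all 4 arrays was found for 2 of the 10 genes and for 1862 genes in all (8.85%). The other C1q chains did not share this, since *C1qb* was lower on array 1 (−0.10) and *C1qc* on array 3 (−0.0033). Their log2 ratios were 0.044 ± 0.11 for *C1qb* and 0.063 ± 0.072 for *C1qc* (SD, n = 4). *Tyrobp*, the partner of TREM2 and other receptors, had a log2 ratio of 0.051 ± 0.089, *Aif1* of 0.076 ± 0.071 and *Mrc1* of 0.079 ± 0.10, and each was above 0 on 3 of 4 arrays.

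The ratios of female and male arrays were compared by an interaction term. None of the 10 genes passed (lowest adjusted p = 1.00 from limma), beside 0 of 21042 genes (0%), and at an unadjusted p below 0.05 limma counted 0 of the 10 and 2.65% of all genes. The largest difference was that of *Mrc1*, with a mean log2 ratio of 0.15 on the female arrays and 0.0089 on the male arrays. *C1qc* followed with 0.12 and 0.0027, and *C1qa* ran the other way with 0.034 and 0.13. With 2 arrays for each sex, the SE of such a difference was between 0.083 and 0.093 for the 10 genes, so that differences of this size were not detectable.

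The levels of these genes differed more between arrays than between genotypes. With the mean of each gene in each dye taken out, the mean log2 level of the 10 genes was −0.14 and −0.093 in the control and mutant pools of array 1 and −0.11 and −0.012 in those of array 2. It was 0.11 and 0.16 in the control and mutant pools of array 3 and 0.041 and 0.042 in those of array 4. All 4 male pools were thus above all 4 female pools in this mean. On the linear scale the pools ran from 90.7% (control, array 1) to 111.6% (mutant, array 3) of the mean over the 8 pools. In both pools of array 3 all 10 genes were above their own means, and in both pools of array 4 it was 9 of 10. In the female pools, 0 to 4 of the 10 genes were above their means. Of the 10 genes, 7 had their highest level in the mutant pool of array 3 and 5 their lowest in the control pool of array 2.

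**Figure D3:**
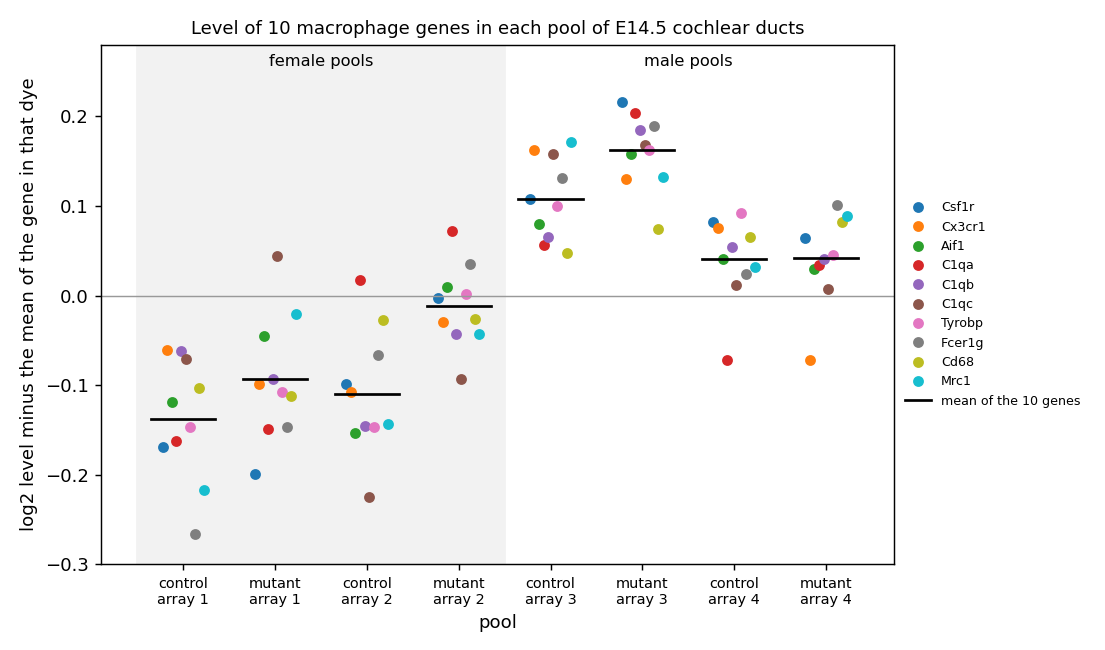
Normalized log2 level of each macrophage gene in the 8 pools, as the difference from the mean of that gene in the same dye (y axis), ordered by array, with the mean of the 10 genes as a black bar. The bars run from −0.14 to −0.012 in the female pools (shaded) and from 0.041 to 0.16 in the male pools.

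Gene by gene, the mean level in the male pools was above that in the female pools for 10 of 10 genes by the brightest probe. The differences were between 0.11 (*C1qa*) and 0.23 (*Csf1r*), with a median of 0.17 on the log2 scale. The dimmer probes gave smaller differences, 0.046 and 0.16 for *Csf1r*, 0.082 and 0.0092 for *Cx3cr1* and 0.048 for *Cd68*. Over all genes tested the median difference was 0.0076, and the difference was above 0 for 11474 of 21042. *Csf1r* had a mean level of 13.04 in the 4 male and 12.80 in the 4 female pools, a difference of 0.23 with an SE of 0.076. For *Fcer1g* the means were 10.62 and 10.40, and for *Mrc1* 11.62 and 11.41. *Tyrobp* stood at 11.54 and 11.34. Every male pool was above every female pool, with the dye taken out, for *Csf1r*, *Aif1*, *C1qb*, *Tyrobp*, *Cd68* and *Mrc1*, 6 of the 10 genes, beside 786 of 21042 genes (3.74%). For *Cx3cr1*, *C1qa*, *C1qc* and *Fcer1g* the pools of the sexes overlapped, and in *Cx3cr1* the mutant pool of array 4 was the only male pool below a female one. No difference passed the test over all genes (adjusted p = 1.00 for each from limma with the array as a random block), beside 13 genes that did (0.0618%), among them the Y-linked genes and *Xist*. At an unadjusted p below 0.05, limma counted 6 of the 10 and 3.33% of all genes. The 10 genes are no independent observations of this difference. Sex and array cannot be told apart, because each sex lay on 2 arrays of its own, and each difference rests on 4 arrays. Leaving out single arrays, the median difference of the 10 genes was between 0.14 and 0.23, and with Agilent's processed signals it was 0.18.

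Other lists moved with the male pools to different extents, and their part in these levels was not tested. The neutrophil list, with 5 of 8 genes tested, had a median difference of 0.40 between male and female pools. The difference was above 0 in 5 of 5 genes, beside 11474 of all 21042. The mean level of this list was −0.0048 to 0.43 in the male and −0.32 to −0.10 in the female pools. The neutrophil genes *Ngp*, *Ltf* and *Retnlg* were not well above background in any pool. The epithelial list (8 genes) was −0.097 to 0.0061 in the male and −0.027 to 0.059 in the female pools, with a median difference of −0.019. The corresponding medians were 0.061 for lymphocyte genes, 0.052 for melanocyte genes, 0.042 for neuronal genes, 0.0062 for glial genes and −0.00090 for mesenchymal genes. They were −0.016 for dendritic cell and MHC class II genes, −0.018 for endothelial genes, −0.032 for red blood cell genes and −0.036 for mast cell genes.

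The 10 genes followed each other over the 8 pools. Pearson's r of a gene with the mean of the other 9, with the dye taken out, was on average 0.871, from 0.716 for *C1qa* and 0.720 for *C1qc* to 0.955 for *Aif1* and 0.976 for *Tyrobp*. Of the 45 pairs, *Aif1* and *Tyrobp* were most alike (r = 0.966), followed by *Csf1r* and *Tyrobp* (0.957). The least alike were *C1qa* and *C1qc* (0.328), although their proteins join in one complex. These values describe 8 pools, of which those of an array share their hybridisation and their sex. Without array 3 the average was 0.758, and without any other single array it was between 0.885 and 0.910. With the dye left in it was 0.83.

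By r with the mean of the 10 genes, 360 of 21042 genes reached 0.8 (1.71%), 8 of the 10 among them, while the median over all genes was 0.027. The 10 further genes most like this mean were *Unc93b1*, *BC051628*, *Epgn*, *Ms4a7*, *Gm32391*, *Vav1*, *Tppp3*, *1700084C01Rik*, *Kynu* and *1700085B13Rik*, with r between 0.957 and 0.977 over 8 pools. *Unc93b1* escorts Toll-like receptors to the endosome, *Ms4a7* is a membrane protein of macrophages and *Vav1* an exchange factor of blood cells, whereas *Epgn* is a ligand of the EGF receptor and *Tppp3* a tubulin-binding protein. Their log2 ratios of mutant over control were between 0.022 and 0.093, and none passed the test. Which genes came out as most alike depended on the pools. Of these 10, 5 remained with Agilent's processed signals, 6 with the dye left in and 0 without any single array, although their r stayed between 0.902 and 0.987 in those sets of 6 pools.

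Few other genes of the macrophage programme passed the test between genotypes. Among 8 ligands and chemokines, all of them tested, none passed the test in either direction, with a median log2 ratio of 0.0026 and ratios from −0.072 (*Mif*) to 0.073 (*Cx3cl1*). *Cx3cl1*, the ligand of CX3CR1, had a ratio above 0 on all 4 arrays (SD 0.039, n = 4; adjusted p = 0.293 from limma), and *Mif*, a cytokine that recruits leukocytes, had a ratio below 0 on all 4 (adjusted p = 0.293 from limma). *Csf1* and *Il34*, the ligands of CSF1R, chosen here after their values were seen, had log2 ratios of 0.044 ± 0.056 and −0.0067 ± 0.068 (SD, n = 4).

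Of 34 further surface genes of macrophages and microglia, 30 were tested and none passed the test, with a median log2 ratio of 0.034. The largest values were those of the scavenger receptor gene *Stab1*, 0.17 ± 0.094 (SD, n = 4; adjusted p = 0.0700 from limma), and the chemokine receptor gene *Ccr2* of monocytes, 0.14 ± 0.17 (adjusted p = 0.158 from limma). With single arrays left out, the log2 ratio was 0.12 to 0.22 for *Stab1* and 0.073 to 0.215 for *Ccr2*. *Cd163*, *Siglec1*, *Timd4* and *Vsig4*, which mark subsets of resident macrophages, were not well above background in any of the 8 pools. Over the pools, 27 of the 30 had an r above 0 with the mean of the 10 genes (median 0.516), beside 11014 of all 21042 genes. A higher mean level in the male pools was found for 25 of 30 (median difference 0.068), beside 11474 of all 21042.

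Of 22 genes for phagocytic, lysosomal and secreted products, 21 were tested and none passed, with a median log2 ratio of 0.073. *Laptm5*, a lysosomal protein of blood cells, had a log2 ratio of 0.18 ± 0.11 (adjusted p = 0.0798 from limma) and *Pf4*, a chemokine of platelets and of some macrophages, 0.17 ± 0.27 (SD, n = 4), with 0.55 on array 1. With single arrays left out, the log2 ratio of *Laptm5* was 0.11 to 0.24. The median r of these 21 genes with the mean of the 10 was 0.60. *Ms4a7* (0.966), *Slc11a1* (0.928), *Ms4a6c* (0.916), *F13a1* (0.872), *Ctss* (0.870) and *Mpeg1* (0.804) were above 0.8, named here after their values were seen. Over all 21042 genes, 360 reached 0.8 (1.71%). An r above 0 was found for 18 of the 21, beside 11014 of all 21042. It was below 0 for *Gpnmb* (−0.49), *Laptm5* (−0.049) and *Ctsb* (−0.034), with *Gpnmb* and *Ctsb* also named after their values were seen.

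Of 29 myeloid transcription factors and haematopoietic signalling genes, 26 were tested, with a median log2 ratio of 0.044. At an adjusted p below 0.05 from limma, 1 was higher and 1 lower, both under the fold minimum. Over all 21042 genes tested, 1091 (5.18%) passed this threshold in either direction. *Ikzf1*, which encodes the zinc finger factor IKAROS of blood cell precursors, fell by 0.31 on the log2 scale, with ratios of −0.33, −0.23, −0.27 and −0.41 on arrays 1 to 4 (adjusted p = 0.00547 from limma). The level was lower in the mutant on 4 of 4 arrays, and its second probe gave −0.23 ± 0.12, while the third was not well above background in any pool. Without array 1 the adjusted p of *Ikzf1* was 0.0664 and without array 3 it was 0.0523. The r of *Ikzf1* with the mean of the 10 macrophage genes was −0.44. Of the 26 genes, 15 had an r above 0 with that mean (median 0.26), and 14 had a higher mean level in the male pools (median difference 0.024). Both counts were near the shares over all 21042 genes, of which 11014 had an r above 0 and 11474 a higher male mean. *Lcp1*, which encodes the actin-bundling protein L-plastin of leukocytes, was higher by 0.18 ± 0.052 (adjusted p = 0.0326 from limma; SD, n = 4), and its second probe gave 0.10 ± 0.13. Its adjusted p was above 0.05 without array 1, 3 or 4 (0.137, 0.116 and 0.155) and with Agilent's processed signals (0.0780).

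Marker lists of other cell types were read beside the macrophage genes for the same contrast. The 4 mast cell genes tested of 6 had a median log2 ratio of −0.14. All 4 lay below 0, whereas 10873 of all 21042 genes lay above 0. At an adjusted p below 0.05 from limma, 1 of the 4 was lower, beside 615 of all 21042 genes. This was *Mcpt4*, a mast cell protease, which fell by 0.27 (SD 0.17, n = 4; adjusted p = 0.0413 from limma). Its ratio was −0.020 on array 4 and −0.33 to −0.40 on the other 3, and without array 1, 2 or 3 its adjusted p was above 0.05. Without array 2 the ratio itself was −0.18. *Cpa3*, another mast cell protease, had −0.14 ± 0.26, with a ratio above 0 on 2 of 4 arrays. *Fcer1a* and *Ms4a2*, the other chains of the IgE receptor that shares the *Fcer1g* adaptor, were not well above background in any pool. None of the tested genes passed among neutrophils (5 of 8 tested, median 0.085), lymphocytes (6 of 8, median 0.053), dendritic cells and MHC class II (5 of 6, median −0.00066) or red blood cells (10 of 10, median 0.099). Within these lists the widest ratios were those of *S100a9* (0.21 ± 0.59), *Mpo* (0.14 ± 0.48), *Cd79b* (0.13 ± 0.097), *Cd3g* (0.094 ± 0.095), *Cd74* (0.056 ± 0.20), *Ciita* (−0.039 ± 0.12), *Hbb-y* (0.21 ± 0.52) and *Hba-a1* (0.19 ± 0.48). *Mpo* had ratios of −0.21, 0.12, −0.17 and 0.82 on arrays 1 to 4, and 0.31 without array 2. *Hbb-y* had 0.39 without array 2 but 0.036 without array 4. The SDs of *S100a9*, *Mpo* and the globin genes were larger than those of the macrophage genes, which had SDs between 0.059 and 0.18. These SDs include the difference between dye orientations, which limma takes out. *Hba-a1*, for example, had 0.45 and 0.73 with the mutant in Cy5, −0.29 and −0.13 with it in Cy3, and an SE of 0.053 from limma.

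**Figure D4:**
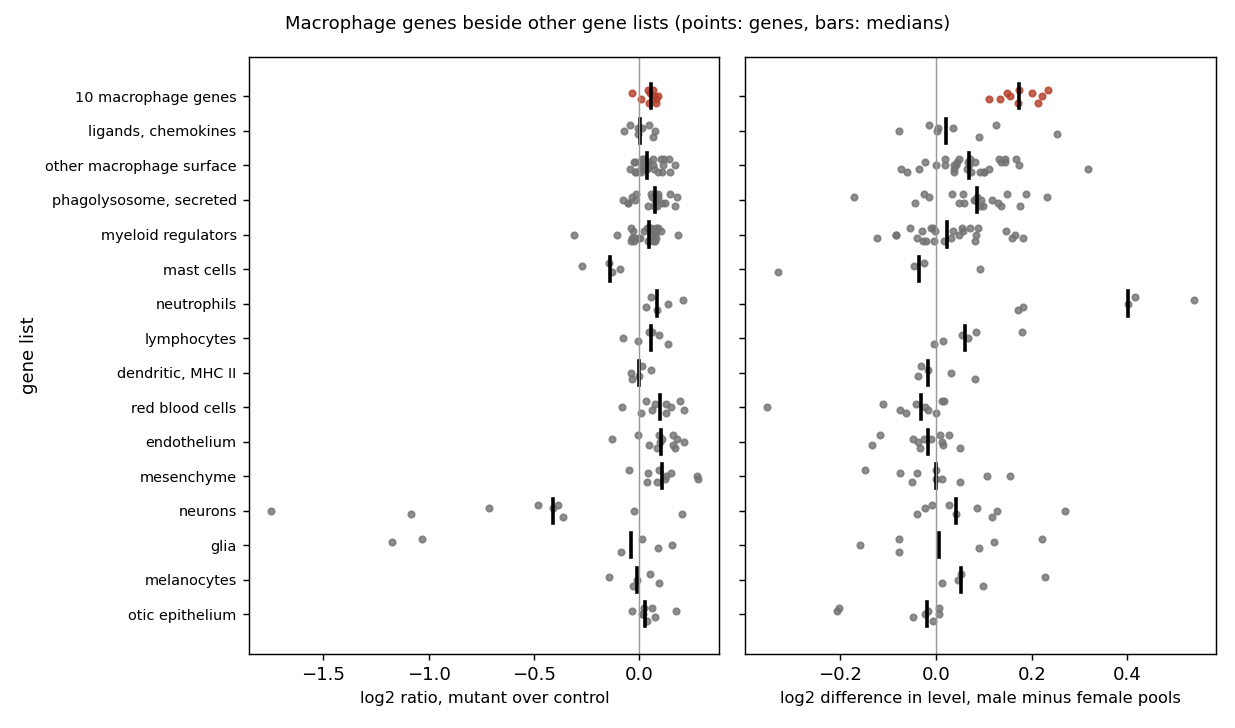
Log2 ratio of mutant over control (left x axis) and log2 difference of male minus female pools (right x axis) for every tested gene of the 10 macrophage genes (red) and of 15 other lists (grey), with the median of each list as a black bar. The medians of the macrophage genes are 0.057 and 0.17, and the neuronal list has the lowest median of mutant over control, −0.41.

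In the tissue lists, 3 of 12 endothelial genes were higher at an adjusted p below 0.05 from limma. Over all 21042 genes tested, 476 were higher and 615 lower at this threshold. The 3 endothelial genes were *Cldn5*, by 0.21 ± 0.037, *Egfl7*, by 0.17 ± 0.032, and *Esam*, by 0.16 ± 0.066 on the log2 scale (SD, n = 4). The median of the endothelial list was 0.10. *Sox18* had 0.18 ± 0.25. Of the 12 genes, 10 had a ratio above 0, beside 10873 of all 21042. The lowest was *Emcn*, named here after its values were seen, with −0.13 ± 0.13 and a ratio below 0 on all 4 arrays. Of 10 mesenchymal genes, *Col1a1* was higher by 0.27 ± 0.12, *Col1a2* had 0.28 ± 0.21 and the median was 0.11. All of these were under the fold minimum. *Esam* and *Egfl7* had an adjusted p above 0.05 without any one array and *Cldn5* without array 1, 3 or 4. Without array 2 the log2 ratio was 0.22 for *Sox18* and 0.39 for *Col1a2*. Of 9 neuronal genes tested, 7 were lower (*Stmn3*, *Elavl3*, *Nefm*, *Nefl*, *Stmn2*, *Tubb3* and *Elavl4*) and *Isl1* was higher, with a median of −0.41. *Nefl*, *Stmn2*, *Tubb3* and *Elavl4* were under the fold minimum. Of 6 glial genes, *Foxd3* and *Fabp7* were lower by over the fold minimum, and the median was −0.038. Over all 21042 genes tested, 65 were called lower with this minimum. *Isl1* was under the fold minimum (0.20 on the log2 scale), and its adjusted p was above 0.05 without array 1, 2 or 3. No gene passed among 5 melanocyte genes (median −0.011, *Tyrp1* −0.15 ± 0.13 and *Pmel* 0.093 ± 0.033) or 8 epithelial genes (median 0.027, *Cdh1* 0.18 ± 0.24 and *Krt18* 0.075 ± 0.14). Without array 2 the log2 ratio of *Tyrp1* was −0.21, and without array 4 that of *Cdh1* was 0.26. In the pools, the mean level of the 10 macrophage genes overlapped between mutant (−0.093 to 0.16) and control (−0.14 to 0.11) pools. The neuronal list (−0.42 to −0.084 in the mutant, 0.093 to 0.42 in the control) did not overlap. Neither did the glial list (−0.19 to −0.14 in the mutant, 0.11 to 0.21 in the control).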

How the data were processed

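Of 4 arrays, each with 1 mutant and 1 control pool, the authors deposited the output of Agilent Feature Extraction 10.7.3.1. The deposited intensity values are, per the file headers, unnormalized spot and local background brightness in both dyes, and Agilent's processed intensity, with background subtracted and dyes normalized. The authors' series value table gives a score per probe and array that reads as a signed fold change (mutant over control) of unstated normalization. Its columns correlated with the ratios used here at r = 0.912 to 0.942 over tested probes, and each had a median of 1. The headers name another array design than the methods, and probe names, symbols and mm9 positions were taken as the files give them.

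Background was corrected by normexp (offset 50, which shrinks ratios of dim probes), and ratios were normalized by loess within arrays without control or outlier-flagged spots. Spots were averaged per probe. A probe was tested if well above background (at least 50% of its unflagged spots) in 4 of 8 channel measurements, and the brightest one stood for its gene. Ratios of 21042 genes were fitted in limma 3.58.1 (R 4.3.3) with genotype direction and a dye intercept, leaving 2 residual degrees of freedom beside a prior of 5.65. P-values were adjusted by Benjamini-Hochberg over all genes. Levels are channel signals after Aquantile between arrays, and the sex difference was fitted to them with the array as a random block (correlation 0.552). The fits were checked on simulated data. The SDs given are those of the array ratios and include any difference between the dye orientations, which the fit takes out. With an array left out, a lone array stood for its dye orientation and was fitted exactly. P-values of such fits therefore miss the spread of that array and are weak evidence in either direction. The number of arrays limits the precision.

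The 10 genes and all lists were chosen with earlier results of these data known. Named genes are the 10 with every probe, of each other list the genes at an adjusted p below 0.05 and the 2 with the largest ratios, the 10 most like the mean pattern, and *Tbx2*, *Sox2* and *Esr1*. The values of 1 gene that this rule names are not reported here, though it stays in the counts and medians of its list. Promoters came from RefSeq's GRCm38.p6 table. The alternatives tried were Agilent's processed signals, an offset of 10, median centring, other filters, no dye term, separate channels (unpaired, or blocked by array), the mean over probes, flagged spots kept, the series value table, each array left out and each sex alone.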

Additional observations from a re-analysis of the deposited data

Results flagged for a closer look

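One value stood apart among 82 groups of 4 values examined for a lone outlying sample (the 4 array ratios of every gene named by rule, and the levels of the 10 macrophage genes in the 4 mutant and in the 4 control pools). It was the ratio of *Sox2*, examined for the check of the labels, where the gap between array 3 (−0.26) and the nearest other array was 0.835 of the whole range, above the 95% limit of Dixon's test. Chance gives about 1 such group in 20. None of the 10 macrophage genes was flagged, and none had all female arrays on one side of 0 and all male arrays on the other.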

How the results depend on the processing

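The number of macrophage genes called, and the number with an adjusted p below 0.05 from limma, stayed at 0 under all 15 alternatives with a test, with lowest adjusted p values between 0.188 and 0.906. Of the 10 genes, 8 to 10 had a ratio above 0. Their median log2 ratio was between 0.051 and 0.069 under the alternatives that kept all arrays, between 0.022 (without array 2) and 0.081 with arrays left out, 0.065 on the female and 0.028 on the male arrays. *Cx3cr1* changed sign with the mean over its probes (0.020) and without array 4 (−0.091 to 0.021 over the arrays left out), and *Cd68* with median centring (−0.011) and without array 3 (−0.00011 to 0.018). *Ciita* (−0.080 to 0.0019, without array 1), *Cd74* (−0.025 to 0.14, without array 2) and *Mpo* (−0.037 to 0.31, without array 4) also changed sign. On the female arrays alone the sign changed for *Cx3cr1* (0.020), *Cd68* (−0.0041) and *Mpo* (−0.046), and on the male arrays alone for *Cd74* (−0.016). Agilent's processed signals and the array as a fixed replicate block gave no call among the 10 genes, and neither did separate channels with no replicate block. The genes of the other lists at an adjusted p below 0.05 numbered 7 higher and 11 lower. The higher ones were 1 with Agilent's processed signals, 4 with an offset of 10, 3 with median centring, 0 with no dye term, 0 with separate channels and no replicate block (5 lower) and 1 with the series value table. With arrays left out they were 1 to 12 higher and 9 to 11 lower. The cause of these changes was not tested. With arrays left out the average r between a macrophage gene and the others was 0.758 to 0.910, and the median difference between male and female pools 0.14 to 0.23, at the correlation estimated from 8 pools. Slide and scan could not be used as blocks, since there was 1 of each, and the interaction without an array left no residual degrees of freedom and was not run. The precision of all values is limited by 4 arrays, and no member was near background.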
